A study of Homo sapiens with 12 samples.

Results

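The proteasome genes were taken as the protein-coding genes of both tables whose names begin with PSMA, PSMB, PSMC, PSMD, PSME, PSMF or PSMG and a number, which gave 47 of the 26485 genes listed in both tables. RNA was sequenced from SCC15 and SCC25, established cell lines that the labels describe as oral squamous cells with wild-type genotype, and each is a single line of head and neck squamous cell carcinoma (HNSCC). Cells of each line had been treated for 24 h with squamocin, which the sample labels name by its compound class ACGs (annonaceous acetogenins), or with DMSO, the solvent, and the study's methods give a squamocin dose of 10 µg/mL. There were 3 libraries in each of the 4 groups (12 in all), and nothing in the labels says that they came from separate cultures, so p-values measure only the spread between these libraries. Values are normalized counts, that is, reads on a gene over the size factor of its library, which the authors estimated for each cell line separately. The test of squamocin against DMSO in a line was limma, on log2 values after adding 1 to each normalized count, and a gene was called higher or lower at a Benjamini-Hochberg adjusted p under 0.05 over all genes with a mean of at least 10. All 47 members were tested in each line. By role they fell into the 7 alpha-ring and 7 constitutive beta-ring subunits of the 20S core and the 3 immunoproteasome subunits. Further members were 17 of the subunits of the 19S particle, 4 activators, 1 inhibitor and 7 assembly factors. The last member, PSMC3IP, matched by name alone, since it encodes a partner of the meiotic recombinases and not a part of the proteasome.

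The libraries held from 16665563 to 22748845 reads on genes. Squamocin replicate 3 of SCC15 stood apart from replicates 1 and 2, with a chi-square per degree of freedom over genes of 64.1 and 56.8 against them, while all other pairs within a group gave from 1.67 to 9.95, and SCC15 results are therefore also given without it. The scaling matters as well. With every library scaled to an equal total in place of the size factors, the median log2 fold change of all genes moved from 0.012 to -0.48 in SCC15 and from -0.015 to -0.22 in SCC25, and each member moved down with it. Of the 6 markers chosen for squamous epithelium, SCC25 cells with DMSO carried all (means of 97.8 for KRT6A to 5627 for KRT5). SCC15 cells with DMSO held KRT5 at 9.5, TP63 at 17.5 and EPCAM at 11.4 beside KRT14 at 759 and CDH1 at 525. Thus 3 of the 6 chosen markers were nearly absent from the libraries labelled SCC15. The summed squamous markers ran from 1430.3 to 1499.8 normalized counts with DMSO and from 1855 to 2476 with squamocin in SCC15, and from 18682 to 18882 and from 21646.5 to 22628 in SCC25. These sums hold genes that moved apart. In SCC15 the mean of KRT14 went from 759 to 1440 with squamocin, while KRT5, KRT6A, TP63, EPCAM and CDH1 were lower. In SCC25 that of KRT5 went from 5627 to 4748 and that of CDH1 from 5204 to 3789, while KRT14, KRT6A, TP63 and EPCAM were higher. The summed leukocyte markers lay at 498 to 540.4 with DMSO and 319 to 501.4 with squamocin in SCC15 and at 329 to 420.1 and 19.1 to 31.1 in SCC25, with CD14 at a mean of 504 with DMSO in SCC15 and at 351 with DMSO and 4.81 with squamocin in SCC25, while PTPRC averaged 3.05 in SCC15 with DMSO and was not listed in SCC25. Fibroblast markers summed to 576 to 631 and 377 to 414 in SCC15 and to 760.0 to 804 and 1065 to 1213 in SCC25, and endothelial markers to 158 to 178 and 66.1 to 77.1 in SCC15 and to 231 to 294 and 19.8 to 36.6 in SCC25, in each case with DMSO and then squamocin. The part of these markers in the results was not tested. The samples are cell lines, so RNA of a marker of another cell type does not by itself show that such cells were present. In bulk RNA, fewer cells that carry a transcript and less of it per cell cannot be told apart.

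The 26S proteasome breaks down proteins that carry ubiquitin chains. Its barrel, the 20S core, is built of outer alpha rings, which gate the entrance, and inner beta rings, in which PSMB5, PSMB6 and PSMB7 carry the active sites, and the 19S particle that caps it recognises ubiquitin, removes it and unfolds the substrate with a ring of ATPases. Interferon induces PSMB8, PSMB9 and PSMB10, which replace the constitutive catalytic subunits in the immunoproteasome and change the peptides that reach MHC class I, and the PA28 activator made of PSME1 and PSME2 belongs to the same response. When proteasome activity falls short, the transcription factor NFE2L1 is known to raise the transcription of proteasome genes together through antioxidant response elements in their promoters.

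The promoters of 41 of the 47 members were found in RefSeq (GRCh38.p14), as windows of 250 bases before to 50 bases after a start site. PSMA7, PSMB1, PSMB6, PSMB7, PSMD4 and PSMG3 had no entry. The core of the antioxidant response element, TGACNNNGC, was searched on both strands and occurred in a window of 15 of the 41 members (36.6%), against 2449 of 13156 protein-coding genes (18.6%). The letters CCAAT, searched likewise and not overlapping the other motif in the sequences printed here, occurred in 20 of the 41 (48.8%), against 42.3% of genes. Of the 15 members with TGACNNNGC, SCC15 had 8 called higher and 2 lower, and SCC25 had 10 and 3, where 30.9% and 30.0% of all genes tested in SCC15 and 38.3% and 38.5% in SCC25 were called in these directions. Under equal library totals these counts were 3 and 4 for SCC15 and 5 and 4 for SCC25. Of all genes, 14.8% were then called higher and 50.5% lower in SCC15, and 30.4% and 47.4% in SCC25. The shares of each scaling also apply to the members without the motif. Among the 26 without it, SCC15 had 18 higher and 1 lower and SCC25 had 13 higher and 11 lower, or 6 and 5 and then 11 and 12 under equal library totals. A match is a description of these letters and not a site of binding. The 250 bases before the start site are shown for 6 members, with the matches to either motif in capitals. PSMB3 (chr17:38752491-38752740 (+ strand)) and PSMD9 (chr12:121888540-121888789 (+ strand)) were higher in both cell lines with the authors' size factors. With equal library totals PSMB3 passed in neither line and PSMD9 in SCC15 alone. Of PSMA2, PSMA6, PSMB4, PSMC4 and PSMC6, which were higher in both lines under both scalings, PSMC4 alone has a TGACNNNGC match. PSME1 (chr14:24135944-24136193 (+ strand)) and PSME2 (chr14:24146611-24146860 (- strand)) are neighbouring activator genes. They were called in opposite directions in SCC25 with the authors' size factors. PSMB9 (chr6:32853942-32854191 (+ strand)) and PSMB10 (chr16:67936851-67937100 (- strand)) are immunoproteasome genes that fell in SCC25. All are written in the direction of the gene.
PSMB3: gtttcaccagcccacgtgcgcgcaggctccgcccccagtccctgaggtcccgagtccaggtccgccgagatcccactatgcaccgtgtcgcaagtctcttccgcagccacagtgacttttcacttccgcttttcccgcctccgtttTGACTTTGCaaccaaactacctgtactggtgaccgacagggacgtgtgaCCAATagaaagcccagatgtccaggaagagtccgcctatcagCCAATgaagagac
PSMD9: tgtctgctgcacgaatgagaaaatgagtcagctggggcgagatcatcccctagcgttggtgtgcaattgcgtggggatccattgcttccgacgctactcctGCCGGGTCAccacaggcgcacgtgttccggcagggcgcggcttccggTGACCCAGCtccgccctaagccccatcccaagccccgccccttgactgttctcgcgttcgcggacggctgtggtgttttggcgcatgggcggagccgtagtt
PSME1: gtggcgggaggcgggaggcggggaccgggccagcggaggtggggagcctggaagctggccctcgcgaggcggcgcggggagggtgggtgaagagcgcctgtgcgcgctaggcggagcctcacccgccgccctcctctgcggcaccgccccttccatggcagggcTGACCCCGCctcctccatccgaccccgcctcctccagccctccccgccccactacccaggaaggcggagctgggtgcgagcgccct
PSME2: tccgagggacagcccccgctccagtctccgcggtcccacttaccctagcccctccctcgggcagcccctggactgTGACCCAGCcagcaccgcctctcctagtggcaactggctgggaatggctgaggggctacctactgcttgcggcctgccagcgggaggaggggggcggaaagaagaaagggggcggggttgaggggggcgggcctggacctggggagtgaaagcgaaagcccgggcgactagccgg
PSMB9: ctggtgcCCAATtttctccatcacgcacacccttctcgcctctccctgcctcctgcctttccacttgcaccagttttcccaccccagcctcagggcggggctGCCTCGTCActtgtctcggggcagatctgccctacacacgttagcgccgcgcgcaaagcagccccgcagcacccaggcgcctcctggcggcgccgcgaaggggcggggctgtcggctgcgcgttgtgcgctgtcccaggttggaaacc
PSMB10: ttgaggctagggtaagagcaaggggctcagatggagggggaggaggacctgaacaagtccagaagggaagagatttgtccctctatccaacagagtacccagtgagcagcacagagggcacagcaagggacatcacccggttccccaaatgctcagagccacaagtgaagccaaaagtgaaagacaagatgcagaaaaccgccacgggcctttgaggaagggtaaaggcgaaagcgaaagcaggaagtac
Counted from the start site, the TGACNNNGC match of PSMB3 begins at -104 and its CCAAT matches at -55 and -13, and those of PSMD9 to TGACNNNGC begin at -149, on the opposite strand, and at -102. In PSME1 the match begins at -86 and in PSME2 at -175. PSMB9 has a TGACNNNGC match on the opposite strand at -148 and CCAAT at -243, and PSMB10 has neither.

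With the authors' size factors, squamocin raised most proteasome genes in SCC15 and split them in SCC25. In SCC15, 32 of the 47 members were called higher, 3 lower (PSMD12, PSMD5 and PSME3) and 12 did not pass, where 30.9% of the 15902 genes tested were called higher and 30.0% lower. In SCC25, 27 members were higher, 15 lower and 5 did not pass, where 38.3% and 38.5% of 16539 genes were called higher and lower. The median log2 fold change of the members was 0.57 in SCC15 and 0.24 in SCC25, beside 0.012 and -0.015 for all genes tested. All squamocin libraries lay above all DMSO libraries for 40 members in SCC15 (35.7% of all genes) and for 29 in SCC25 (39.4%), and below them for 4 (34.9%) and 15 (39.6%). Without squamocin replicate 3 of SCC15, 36 members were higher, among them all 32, and 5 lower (38.4% and 37.2% of genes), and the median of the members was 0.34. The size of the changes in SCC15 thus rested in part on that library, since 30 of the 35 called members had a smaller log2 fold change without it and 9 moved by over 1.5 times.

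Scaled to equal library totals, 10 members were higher and 9 lower in SCC15, where 14.8% and 50.5% of all genes were called higher and lower, and 18 were higher and 18 lower in SCC25 (30.4% and 47.4% of genes), so that the direction of many single genes depends on the scaling. The median of the members lay above the median of all genes by 0.56 in SCC15, by 0.33 there without squamocin replicate 3, and by 0.26 in SCC25, and 42 members in SCC15 and 31 in SCC25 lay above it. A change of scaling shifts all genes of a library alike and so leaves this distance nearly as it is by construction. Of the reads on genes in SCC15, the members together held 0.587, 0.596 and 0.583% with DMSO and 0.583, 0.594 and 0.714% with squamocin. In SCC25 they held 0.564, 0.549 and 0.554% with DMSO and 0.545, 0.542 and 0.547% with squamocin. The summed share was thus higher with squamocin only in replicate 3 of SCC15.

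**Figure D1:**
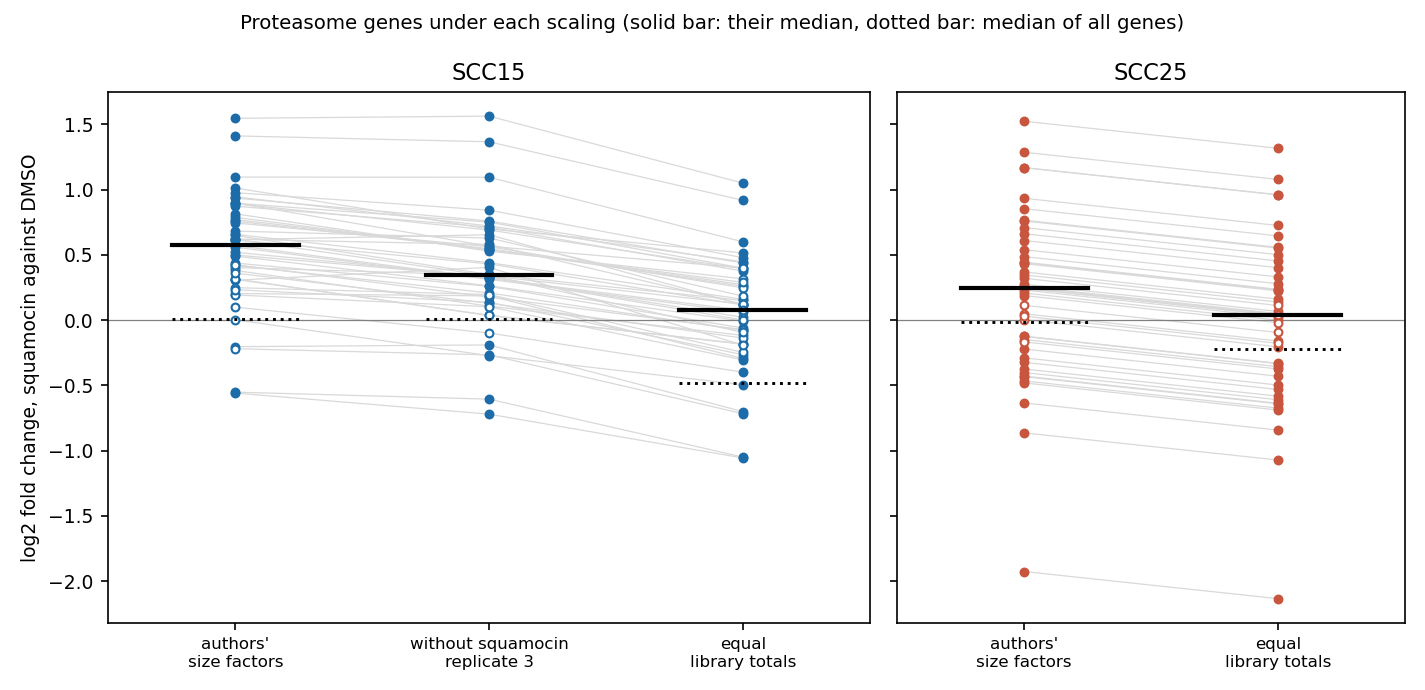
Log2 fold changes of squamocin against DMSO (y axis) of the 47 proteasome genes in SCC15 (left) and SCC25 (right) with the authors' size factors, without squamocin replicate 3 (SCC15 only) and with equal library totals; each point is a gene, joined by lines, filled where the adjusted p was under 0.05, and the solid and dotted bars are the medians of these genes and of all genes. The solid bar falls from 0.57 to 0.076 in SCC15 and from 0.24 to 0.036 in SCC25 with equal totals, and the dotted bar falls by nearly as much.

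Across the lines, 23 members were called higher in both (22.1% of the 14454 genes tested in both lines) and 1, PSME3, lower in both (18.6%), while 9 were called in opposite directions (10.1%). The 23 were PSMA1, PSMA2, PSMA3, PSMA6 and PSMA7 of the alpha ring, PSMB1 to PSMB5 and PSMB7 of the beta ring, PSMC4 and PSMC6 of the base ATPases, PSMD6, PSMD11, PSMD13 and PSMD14 of the lid, the activators PSME2 and PSME4, and the assembly factors PSMD9, PSMD10, PSMG2 and PSMG3. With equal library totals, PSMA2, PSMA6, PSMB4, PSMC4 and PSMC6 were higher in both (10.7% of genes), PSMC1, PSMD1, PSME3 and PSMF1 were lower in both (32.2%), and PSMD11 was lower in SCC15 at -0.29 and higher in SCC25 at 0.56.

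**Figure D2:**
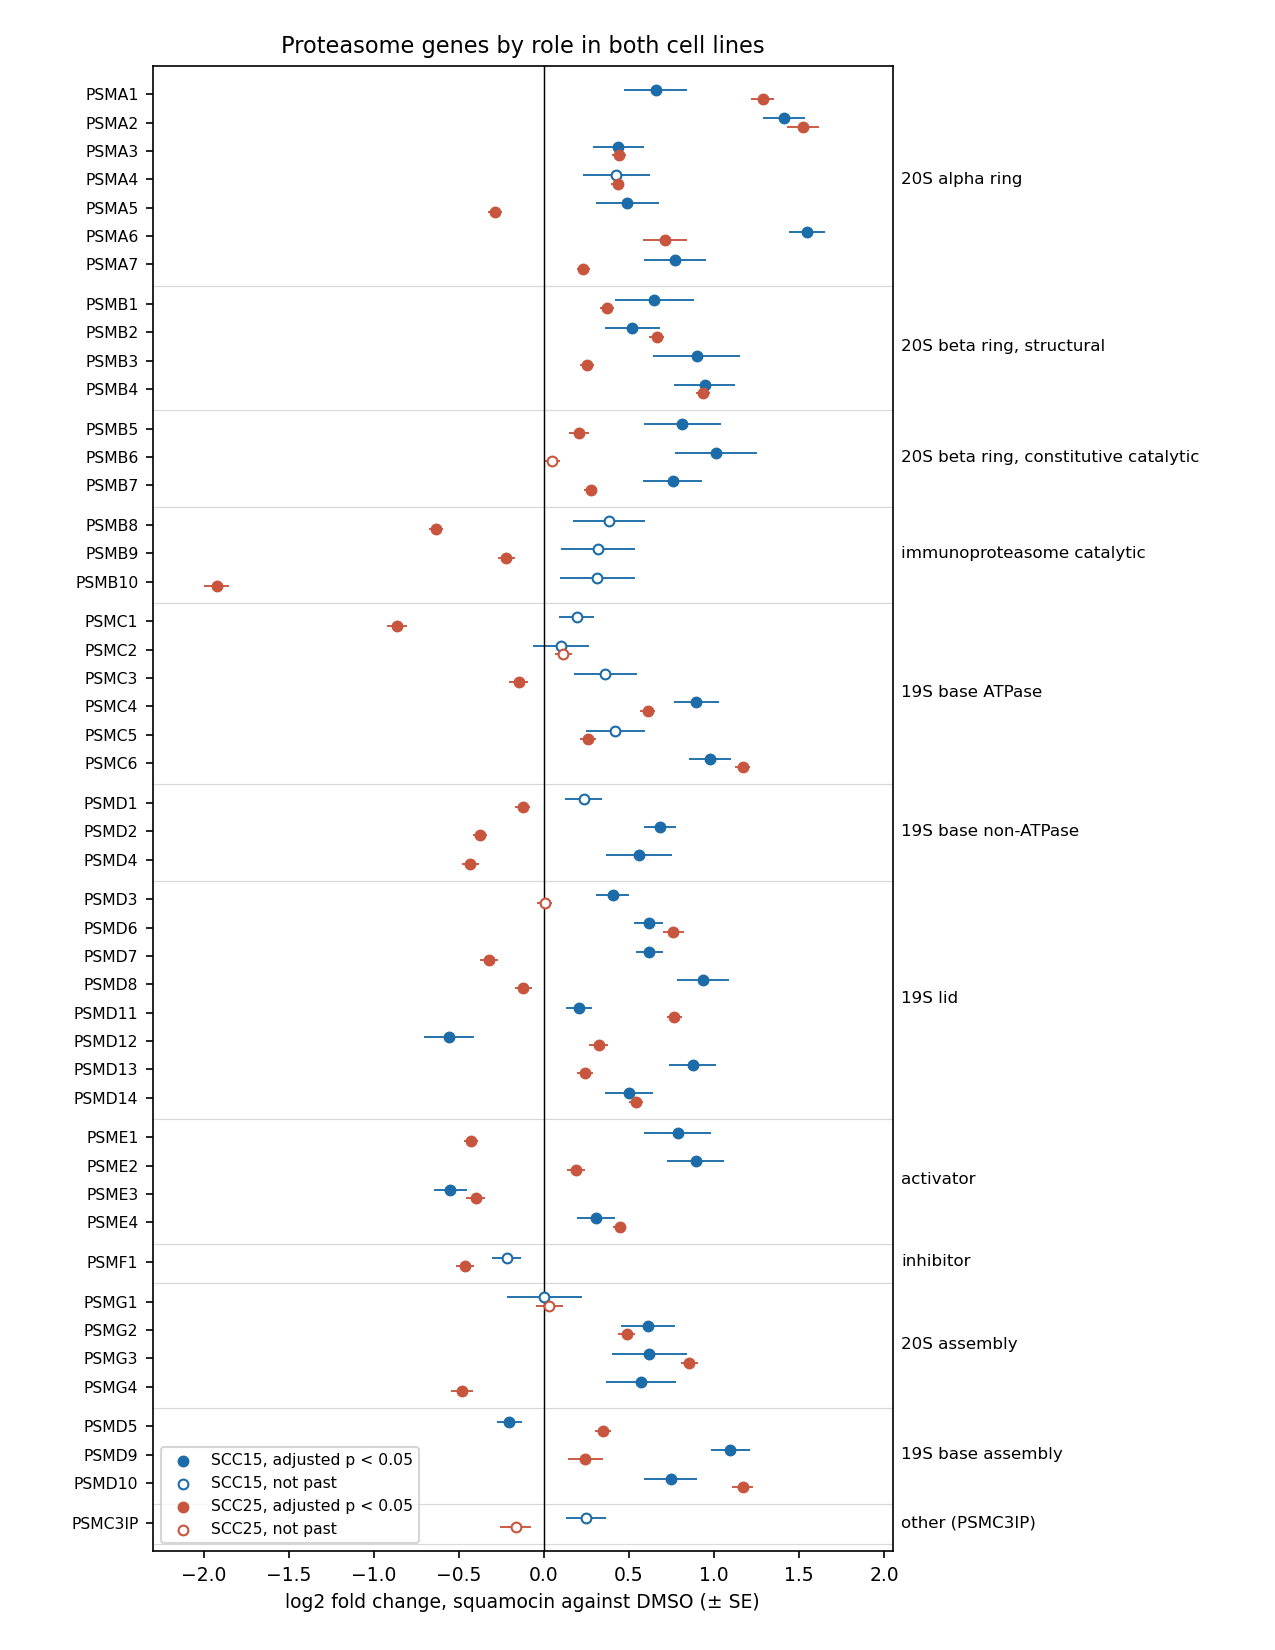
Log2 fold change of squamocin against DMSO (x axis, ± SE) for each of the 47 genes, ordered by role, in SCC15 (blue) and SCC25 (red) with the authors' size factors; filled points had an adjusted p under 0.05. The constitutive core subunits lie to the right of 0 in both lines except PSMA5 in SCC25, while the immunoproteasome and base non-ATPase subunits lie to the left of 0 in SCC25 and to the right in SCC15.

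Nearly all core subunits rose in both lines with the authors' size factors, and fewer did with equal library totals. Of the 14 constitutive subunits of the 20S core, 13 were higher and 0 lower in SCC15 (median log2 fold change 0.76). In SCC25, 12 were higher and 1 lower (median 0.40). Over all genes, 30.9% were higher and 30.0% lower in SCC15, and 38.3% and 38.5% in SCC25. With equal library totals the core counts became 4 and 0 for SCC15 (14.8% and 50.5% of all genes). For SCC25 they became 8 and 2 (30.4% and 47.4%). PSMA4 did not pass in SCC15 (0.43, adjusted p = 0.097 by limma) and passed without squamocin replicate 3 at 0.18, whereas in SCC25 it rose by 0.43 (-0.072 and 0.22 with equal library totals, past the threshold in SCC25). PSMA1, an alpha-ring subunit, measured 604, 685 and 627 normalized counts with DMSO and 929, 807 and 1360.0 with squamocin in SCC15 cells. PSMA1 rose by 0.66 ± 0.19 on the log2 scale (SE, limma adjusted p = 0.017), with every squamocin library above every DMSO library. The value was 0.16 with equal library totals (not past the threshold). In SCC25, PSMA1 stood at 512, 506 and 461 normalized counts with DMSO and at 1263, 1232 and 1117 with squamocin. PSMA1 rose by 1.29 ± 0.068 on the log2 scale (SE, limma adjusted p = 2.7e-09), and the groups did not overlap. PSMA1 was the alpha-ring gene whose response was larger in SCC25. The difference of its log2 fold changes, SCC25 minus SCC15, was 0.63 ± 0.21 (SE, limma adjusted p = 0.023).

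In SCC15, PSMA2 stood at 75.9, 74.3 and 68.1 normalized counts with DMSO and at 190.1, 188 and 208 with squamocin. PSMA2 rose by 1.41 ± 0.12 on the log2 scale (SE, limma adjusted p = 0.00011), and the groups did not overlap. This change was 0.92 with equal library totals. For PSMA2 the SCC25 libraries gave 145, 123 and 141 normalized counts with DMSO and 388, 388 and 404 with squamocin. PSMA2 rose by 1.52 ± 0.096 on the log2 scale (SE, limma adjusted p = 1.5e-08), with every squamocin library above every DMSO library. The difference between the lines did not pass for PSMA2, at 0.11 ± 0.15 (SE, limma adjusted p = 0.56), but passed at 0.40 (adjusted p = 0.033) by limma with equal library totals. With DMSO, PSMA6 counted 195, 217 and 216 normalized reads in SCC15 cells, against 672, 571 and 598 with squamocin. PSMA6 rose by 1.55 ± 0.11 on the log2 scale (SE, limma adjusted p = 4e-05), and the groups did not overlap. PSMA6 measured 197, 230.3 and 229 normalized counts with DMSO and 333, 308 and 445 with squamocin in SCC25 cells. PSMA6 rose by 0.71 ± 0.13 on the log2 scale (SE, limma adjusted p = 0.00027), with every squamocin library above every DMSO library. PSMA6 rose less in SCC25, by a difference of -0.84 ± 0.19 (SE, limma adjusted p = 0.0023). The counts of PSMA2 and PSMA6 are uncertain, because each gene lies almost wholly within another protein-coding gene model of the same strand (AC010132.3 over 15318 bases and AL121594.1 over 38842 bases), and how reads in the shared span were assigned is not given in the sources used here. Per kilobase of exon with DMSO in SCC15, PSMA2 counted 8.69 and PSMA6 32.2, far under the median of 882 over the 14 core subunits, which the assembled ring holds in equal number. The length used joins all annotated exons of a gene, 8378 bases for PSMA2 and 6506 for PSMA6. Levels per kilobase set between genes therefore depend on the annotation as well.

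Of the other alpha-ring genes, PSMA3 rose by 0.44 in SCC15 and 0.44 in SCC25, and its antisense gene PSMA3-AS1 counted 28.7% of its reads in SCC15 and 22.6% in SCC25, which cannot be told apart where reads carry no strand. PSMA7, the subunit with the highest level per kilobase in SCC15 with DMSO (3123), rose by 0.77 in SCC15 and 0.23 in SCC25. PSMA5 turned the other way, with a rise of 0.49 in SCC15 and a fall of 0.29 in SCC25, and the difference of -0.78 ± 0.20 (SE, limma adjusted p = 0.0053) passed. With equal library totals, the values in SCC15 were -0.060 for PSMA3, -0.0068 for PSMA5 and 0.27 for PSMA7, none of which passed, and the SCC25 rise of PSMA7 was lost at 0.023. Without squamocin replicate 3, PSMA3 and PSMA5 were at 0.26 and 0.26 in SCC15. The SCC15 calls of PSMA3 and PSMA5 were lost when any 1 of the DMSO libraries was left out and that of PSMA1 without DMSO replicate 1 or 3, at adjusted p values of up to 0.12, 0.13 and 0.063 (limma).

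All 4 structural beta-ring subunits, which carry no active site, rose in both lines with the authors' size factors. Of all genes tested in both lines, 22.1% were called higher in both. For PSMB4 the SCC15 libraries gave 3313, 3355 and 3299.8 normalized counts with DMSO and 5456, 5503 and 8722 with squamocin. With DMSO, PSMB4 counted 4243, 4118 and 4136 normalized reads in SCC25 cells, against 8255, 7727 and 7901 with squamocin. The SCC15 rise of PSMB4 was 0.95 and the SCC25 rise 0.93, with all squamocin libraries above all DMSO libraries in each line, and PSMB4 passed under both scalings (0.45 and 0.73 with equal library totals). PSMB1 rose by 0.65 and 0.37 in SCC15 and SCC25, PSMB2 by 0.52 and 0.66, and PSMB3, whose promoter is printed above, by 0.90 and 0.25. None of the 4 differed between the lines past the threshold with the authors' size factors and all libraries. PSMB2 differed at 0.43 (adjusted p = 0.0099) by limma with equal library totals, and PSMB2, PSMB3 and PSMB4 differed at 0.33, -0.31 and 0.21 without squamocin replicate 3 of SCC15, PSMB3 also without squamocin replicate 1 or 2. Under equal library totals, PSMB4 alone passed in SCC15, and PSMB1, PSMB2 and PSMB4 passed in SCC25, all as higher. Of all genes, 14.8% were then called higher in SCC15 and 30.4% in SCC25. In SCC15 the calls of PSMB1, PSMB2 and PSMB3 were lost when any 1 of the DMSO libraries was left out, at limma adjusted p values of up to 0.11, 0.087 and 0.058, and without squamocin replicate 3 their rises were 0.35, 0.33 and 0.57.

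With the authors' size factors, the 3 constitutive catalytic subunits rose in SCC15, while PSMB5 and PSMB7 rose and PSMB6 did not pass in SCC25. Of all genes, 30.9% were called higher in SCC15 and 38.3% in SCC25. Under equal library totals PSMB6 rose in SCC15 (14.8% of genes) and fell in SCC25 (47.4%), and PSMB5 and PSMB7 did not pass. PSMB5, the beta5 subunit with chymotrypsin-like activity and the target of bortezomib, measured 1978, 1947 and 1942 normalized counts with DMSO and 2628, 3031 and 5115 with squamocin in SCC15 cells. PSMB5 rose by 0.81 ± 0.23 on the log2 scale (SE, limma adjusted p = 0.016), with every squamocin library above every DMSO library. The value was 0.53 without squamocin replicate 3 and 0.32 with equal library totals (not past the threshold). In SCC25, PSMB5 stood at 2127, 2001 and 2114 normalized counts with DMSO and at 2433, 2591 and 2199 with squamocin. PSMB5 rose by 0.21 ± 0.059 on the log2 scale (SE, limma adjusted p = 0.0063), and the groups did not overlap. This change was -0.00017 with equal library totals (not past the threshold). For PSMB6, the beta1 subunit with caspase-like activity, the SCC15 libraries gave 1774, 1797 and 1825 normalized counts with DMSO and 2872, 2968 and 5615 with squamocin. PSMB6 rose by 1.01 ± 0.24 on the log2 scale (SE, limma adjusted p = 0.0085), with every squamocin library above every DMSO library. It was 0.52 with equal library totals. With DMSO, PSMB6 counted 1932, 1885 and 1895 normalized reads in SCC25 cells, against 2018, 1932 and 1958 with squamocin. Its log2 fold change was 0.049 ± 0.044 (SE, limma adjusted p = 0.32), not past the threshold, although every squamocin library lay above every DMSO library. The value was -0.16 with equal library totals (past the threshold). The response of PSMB6 differed between the lines, at -0.96 ± 0.26 (SE, limma adjusted p = 0.0077). In SCC15, PSMB7, the beta2 subunit with trypsin-like activity, stood at 2813, 2746 and 2757 normalized counts with DMSO and at 3948, 4141 and 6305 with squamocin. PSMB7 rose by 0.76 ± 0.17 on the log2 scale (SE, limma adjusted p = 0.0071), and the groups did not overlap. This change was 0.26 with equal library totals (not past the threshold). PSMB7 measured 5322, 4990.4 and 5183 normalized counts with DMSO and 6276, 6175 and 6295 with squamocin in SCC25 cells. PSMB7 rose by 0.28 ± 0.039 on the log2 scale (SE, limma adjusted p = 3.1e-05), with every squamocin library above every DMSO library. The value was 0.067 with equal library totals (not past the threshold). PSMB7 also rose more in SCC15, with a difference of -0.48 ± 0.19 (SE, limma adjusted p = 0.046), whereas that of PSMB5 did not pass, at -0.61 ± 0.25 (SE, limma adjusted p = 0.058). The PSMB7 difference was lost with equal library totals and when any 1 of 9 of the 12 libraries was left out (limma adjusted p up to 0.091), and was -0.27 without squamocin replicate 3 of SCC15, while that of PSMB5 passed without any 1 of the SCC15 squamocin libraries and was -0.32 without replicate 3. The SCC15 call of PSMB5 was lost without DMSO replicate 2 or 3 (limma adjusted p up to 0.052).

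The 3 immunoproteasome genes fell in SCC25, where their median log2 fold change was -0.63, and none was called in SCC15, where it was 0.32 (0.038 without squamocin replicate 3). Of all genes, 38.5% were called lower in SCC25, and 30.9% higher and 30.0% lower in SCC15. With equal library totals all 3 were again lower in SCC25 (47.4% of genes) and none was called in SCC15. With equal library totals and without squamocin replicate 3, a setting chosen after seeing the data, all 3 were called lower in SCC15 as well, PSMB8 at -0.31, PSMB9 at -0.38 and PSMB10 at -0.37. No share over all genes is given for that setting. In SCC15, PSMB8, the beta5i subunit, stood at 1325, 1296 and 1332 normalized counts with DMSO and at 1422, 1417 and 2507 with squamocin. Its log2 fold change was 0.38 ± 0.21 (SE, limma adjusted p = 0.16), not past the threshold, although every squamocin library lay above every DMSO library. The value was 0.11 without squamocin replicate 3 and -0.12 with equal library totals. For PSMB8 the SCC25 libraries gave 4686, 4511 and 4698 normalized counts with DMSO and 2874, 2975 and 3104 with squamocin. PSMB8 fell by 0.63 ± 0.043 on the log2 scale (SE, limma adjusted p = 3e-08), with every squamocin library below every DMSO library. With DMSO, PSMB9, the beta1i subunit, counted 1184, 1167 and 1169 normalized reads in SCC15 cells, against 1188, 1217 and 2155 with squamocin. Its log2 fold change was 0.32 ± 0.22 (SE, limma adjusted p = 0.24), not past the threshold, although every squamocin library lay above every DMSO library. The value was 0.036 without squamocin replicate 3 and -0.18 with equal library totals. PSMB9 measured 4575, 4379.7 and 4381 normalized counts with DMSO and 3822, 3582 and 4046 with squamocin in SCC25 cells. PSMB9 fell by 0.22 ± 0.048 on the log2 scale (SE, limma adjusted p = 0.0011), with every squamocin library below every DMSO library. In both genes, squamocin replicate 3 of SCC15 was high and replicates 1 and 2 lay close to the DMSO libraries. For PSMB10, the beta2i subunit, the SCC15 libraries gave 624, 629 and 658 normalized counts with DMSO and 606, 704 and 1158 with squamocin. PSMB10 had a log2 fold change of 0.31 ± 0.22 (SE, limma adjusted p = 0.25), which did not pass the threshold, and the groups overlapped. The value was 0.038 without squamocin replicate 3 and -0.18 with equal library totals. In SCC25, PSMB10 stood at 1499.8, 1485 and 1424 normalized counts with DMSO and at 357, 373 and 431 with squamocin. PSMB10 fell by 1.93 ± 0.072 on the log2 scale (SE, limma adjusted p = 1.4e-10), and the groups did not overlap. PSMB10 was the member that fell most, to between 357 and 431 normalized counts from between 1424 and 1499.8, and it was also the member with the widest gap between the lines, at -2.24 ± 0.25 (SE, limma adjusted p = 1.1e-05). For PSMB8 the difference was -1.02 ± 0.23 (SE, limma adjusted p = 0.0026), and for PSMB9 it was -0.54 ± 0.24 (SE, limma adjusted p = 0.076), which did not pass but did without any 1 of the SCC15 squamocin libraries (-0.26 without replicate 3). PSMB8 and PSMB9 overlap by 568 bases on opposite strands, and the lincRNA PSMB8-AS1 overlaps both, at 6.97% of the PSMB8 count in SCC15 and 9.78% in SCC25. Reads of PSMB8 cannot be told apart there from those of PSMB9 and PSMB8-AS1 without strand. PSMB8-AS1 shares 2360 bases with PSMB9 on the same strand, where strand would not separate them. PSMB10 shares 1516 bases with the same-strand gene AC040162.1, which averaged 75.4 in SCC15 and 64.5 in SCC25.

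**Figure D3:**
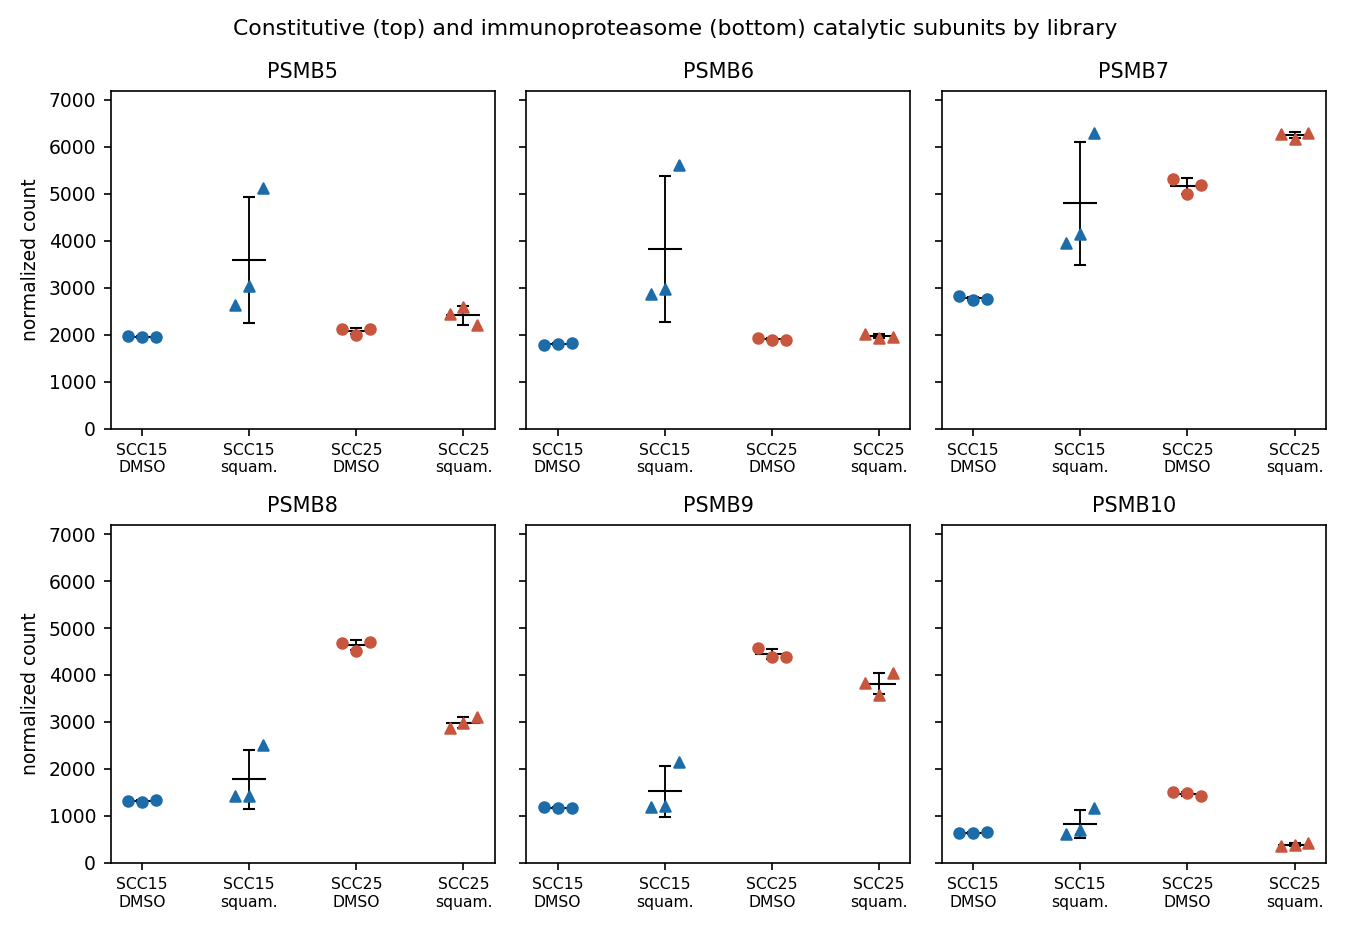
Normalized counts (y axis, from 0) of the constitutive catalytic subunits (top) and of their immunoproteasome counterparts (bottom) in each library, as circles for DMSO and triangles for squamocin, with the mean and SD of 3 libraries as black bars. PSMB10 in SCC25 drops from 1424 to 1499.8 with DMSO to 357 to 431 with squamocin, and squamocin replicate 3 of SCC15 is the highest point of its group in each panel.

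Ratios within a library do not depend on its scaling. The level of each ratio does depend on the exonic lengths used. Per kilobase of exon, PSMB8 stood at 0.299, 0.297 and 0.306 of PSMB5 in SCC15 with DMSO and at 0.241, 0.208 and 0.218 with squamocin, while SCC25 gave 0.981, 1.00 and 0.989 with DMSO, against 0.526, 0.511 and 0.629 with squamocin. The ratio of PSMB9 to PSMB6 was 0.290, 0.282 and 0.278 with DMSO and 0.180, 0.178 and 0.167 with squamocin in SCC15. In SCC25 it was 1.03, 1.01 and 1.00 with DMSO, against 0.821, 0.804 and 0.896 with squamocin. For PSMB10 over PSMB7 the SCC15 values were 0.244, 0.252 and 0.263 with DMSO, against 0.169, 0.187 and 0.202 with squamocin. The SCC25 values were 0.310, 0.327 and 0.302 with DMSO, against 0.063, 0.067 and 0.076 with squamocin. Each immunoproteasome subunit was therefore lower against its constitutive counterpart in all squamocin libraries than in all DMSO libraries of both lines. In SCC15 the log2 ratio changed by -0.43, -0.70 and -0.45, and by -0.42, -0.66 and -0.51 without squamocin replicate 3. In SCC25 it changed by -0.84, -0.27 and -2.20. An exact two-sided permutation test of 3 against 3 libraries gave p = 0.1 for each of the 8 ratio comparisons made, raw and adjusted, which is the smallest p this design allows, so none can pass 0.05.

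**Figure D4:**
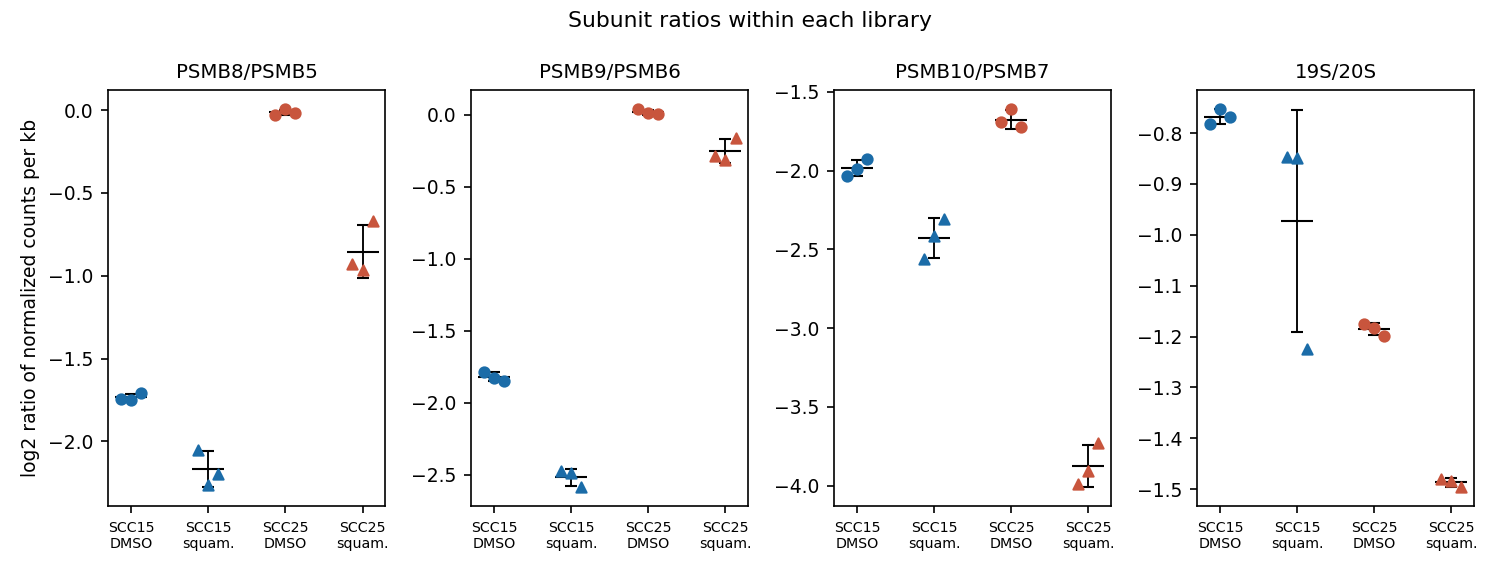
Log2 ratio of normalized counts per kilobase of exon (y axis, on its own scale in each panel) within each library for the 3 immunoproteasome subunits over their constitutive counterparts and for the summed 19S over the summed 20S subunits, as circles for DMSO and triangles for squamocin, with the mean and SD of 3 libraries. The squamocin libraries lie below the DMSO libraries in each panel and line, with a mean change of -2.20 for PSMB10 over PSMB7 in SCC25.

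Of the 17 subunits of the 19S particle matched by name, 11 were higher and 1 lower in SCC15 (median 0.50). In SCC25, 8 were higher and 7 lower (median 0.11), a split near that of all genes. Over all genes, 30.9% were higher and 30.0% lower in SCC15, and 38.3% and 38.5% in SCC25. Equal library totals gave 4 higher and 5 lower for SCC15 (14.8% and 50.5% of all genes). For SCC25 they gave 5 and 8 (30.4% and 47.4%). ADRM1 and SEM1, also subunits of the particle, did not match by name and are given below. Among the 6 base ATPases, which unfold the substrate, PSMC4 and PSMC6 were higher in both lines under both scalings. With DMSO, PSMC6 counted 1399.9, 1485 and 1496 normalized reads in SCC15 cells, against 2681, 2558 and 3461 with squamocin. PSMC6 rose by 0.98 ± 0.12 on the log2 scale (SE, limma adjusted p = 0.00053), and the groups did not overlap. That value was 0.48 with equal library totals. For PSMC6 the SCC25 libraries gave 1383, 1329 and 1403 normalized counts with DMSO and 3007, 3137 and 3114 with squamocin. PSMC6 rose by 1.17 ± 0.045 on the log2 scale (SE, limma adjusted p = 1.6e-10), with every squamocin library above every DMSO library. The squamocin libraries of both lines thus lay at 2558 to 3461 for PSMC6 and the DMSO libraries at 1329 to 1496. PSMC4 rose by 0.90 in SCC15 and 0.61 in SCC25 (0.40 and 0.40 with equal library totals). PSMC1, the ATPase that helps open the gate of the core, measured 1494, 1594 and 1481 normalized counts with DMSO and 1597, 1673 and 1972 with squamocin in SCC15 cells. PSMC1 had a log2 fold change of 0.19 ± 0.10 (SE, limma adjusted p = 0.14), which did not pass the threshold, although every squamocin library lay above every DMSO library. The value was 0.10 without squamocin replicate 3 and -0.30 with equal library totals (past the threshold). In SCC25, PSMC1 stood at 1111, 1057 and 1054 normalized counts with DMSO and at 576, 627 and 567 with squamocin. PSMC1 fell by 0.86 ± 0.060 on the log2 scale (SE, limma adjusted p = 4.1e-08), and the groups did not overlap. PSMC1 was the ATPase with the deepest fall in SCC25, and its response differed between the lines by -1.06 ± 0.12 (SE, limma adjusted p = 1.2e-05). A processed pseudogene, PSMC1P1, counted 4.13% of its reads in SCC15 and 7.84% in SCC25. PSMC5 did not pass in SCC15 (0.42, limma adjusted p = 0.070, and past the threshold at 0.21 without squamocin replicate 3) and rose by 0.26 in SCC25, a call lost with equal library totals (0.051). PSMC3 was at 0.36 in SCC15, not past, or 0.13 and past the threshold without squamocin replicate 3, and it fell by 0.15 in SCC25, a call that was lost without squamocin replicate 3 or DMSO replicate 1 or 3 of SCC25 (limma adjusted p up to 0.16), while PSMC2 passed in neither line with the authors' size factors and all libraries (0.10 and 0.11). In SCC15, PSMC2 was at -0.098 without squamocin replicate 3, not past, and was called lower at -0.40 with equal library totals, and in SCC25 it was called higher at 0.15 without squamocin replicate 3.

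The 3 base subunits matched by name that are not ATPases were all called lower in SCC25, where 38.5% of all genes were. PSMD2 and PSMD4 were higher in SCC15. For PSMD4, a ubiquitin receptor of the particle, the SCC15 libraries gave 2140.4, 2184 and 2059 normalized counts with DMSO and 2577, 2709 and 4413 with squamocin. PSMD4 rose by 0.56 ± 0.20 on the log2 scale (SE, limma adjusted p = 0.039), with every squamocin library above every DMSO library. It was 0.31 without squamocin replicate 3 and 0.062 with equal library totals (not past the threshold). PSMD4 measured 2237, 2167 and 2162 normalized counts with DMSO and 1601, 1704 and 1559.8 with squamocin in SCC25 cells. PSMD4 fell by 0.43 ± 0.048 on the log2 scale (SE, limma adjusted p = 3.4e-06), with every squamocin library below every DMSO library. PSMD4 went up in SCC15 and down in SCC25, with a difference of -0.99 ± 0.21 (SE, limma adjusted p = 0.0018). In SCC15, PSMD2, the scaffold that docks shuttle receptors, stood at 8352, 8298 and 8229 normalized counts with DMSO and at 12692, 12965 and 14335 with squamocin. With DMSO, PSMD2 counted 4338, 4019 and 4109.9 normalized reads in SCC25 cells, against 3228, 3184 and 3199.6 with squamocin. PSMD2 rose by 0.68 in SCC15 (0.18 with equal library totals, not past) and fell by 0.37 in SCC25, with a difference of -1.06 ± 0.094 (SE, limma adjusted p = 1.7e-06). PSMD1, the other scaffold, was at 0.23 in SCC15, not past, but was called higher at 0.14 without squamocin replicate 3 and lower at -0.26 with equal library totals, and it fell by 0.13 in SCC25, a call lost without DMSO replicate 2 or 3 (limma adjusted p up to 0.086). In SCC15 the call of PSMD4 was lost when any 1 of the DMSO libraries was left out (limma adjusted p up to 0.11). The difference between the lines passed for all 3, although that of PSMD1 was lost with equal library totals and without DMSO replicate 1 of SCC15.

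The lid holds the deubiquitinase. Of its 8 subunits matched by name, 7 were higher and 1 lower in SCC15 (30.9% and 30.0% of all genes). In SCC25, 5 were higher and 2 lower (38.3% and 38.5%). Equal library totals gave 2 of each kind for SCC15 (14.8% and 50.5% of all genes) and 3 of each for SCC25 (30.4% and 47.4%). With DMSO, PSMD14, the deubiquitinase that cuts the chain from the substrate, counted 1484, 1529 and 1426 normalized reads in SCC15 cells, against 1859, 1867 and 2633 with squamocin. PSMD14 rose by 0.50 ± 0.14 on the log2 scale (SE, limma adjusted p = 0.018), and the groups did not overlap. That value was 0.0014 with equal library totals (not past the threshold). In SCC25, PSMD14 stood at 1839.9, 1799.9 and 1789 normalized counts with DMSO and at 2623, 2689 and 2581 with squamocin. PSMD14 rose by 0.54 ± 0.043 on the log2 scale (SE, limma adjusted p = 1.3e-07), and the groups did not overlap. This change was 0.33 with equal library totals. PSMD14 rose in both lines, and the difference of its log2 fold changes did not pass, at 0.041 ± 0.15 (SE, limma adjusted p = 0.84), but passed at 0.33 (adjusted p = 0.015) by limma with equal library totals and at 0.21 without squamocin replicate 3 of SCC15. For PSMD12, a structural subunit of the lid, the SCC15 libraries gave 1147, 1271 and 1134 normalized counts with DMSO and 752, 684 and 1004 with squamocin. PSMD12 fell by 0.56 ± 0.15 on the log2 scale (SE, limma adjusted p = 0.013), with every squamocin library below every DMSO library. PSMD12 measured 1297, 1289.9 and 1219.8 normalized counts with DMSO and 1622, 1657 and 1479.9 with squamocin in SCC25 cells. PSMD12 rose by 0.32 ± 0.056 on the log2 scale (SE, limma adjusted p = 0.00018), with every squamocin library above every DMSO library. The value was 0.11 with equal library totals (not past the threshold). PSMD12 was the member that fell most in SCC15, and its response was higher in SCC25 by 0.88 ± 0.17 (SE, limma adjusted p = 0.00068). In SCC15, PSMD8, another structural subunit, stood at 2604, 2483 and 2481 normalized counts with DMSO and at 4036, 4519.6 and 6158 with squamocin. PSMD8 rose by 0.94 ± 0.15 on the log2 scale (SE, limma adjusted p = 0.0016), and the groups did not overlap. This change was 0.44 with equal library totals. For PSMD8 the SCC25 libraries gave 2274, 2272 and 2405 normalized counts with DMSO and 2178, 2012 and 2197 with squamocin. PSMD8 fell by 0.12 ± 0.049 on the log2 scale (SE, limma adjusted p = 0.038), with every squamocin library below every DMSO library. The difference for PSMD8 was -1.06 ± 0.17 (SE, limma adjusted p = 0.00019), among the 3 widest of the members by absolute size together with PSMB10 and PSME1.

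Other lid genes were PSMD6, which rose by 0.62 and 0.76 in SCC15 and SCC25, and PSMD13, which rose by 0.87 and 0.24, more in SCC15, with a difference of -0.63 ± 0.15 (SE, limma adjusted p = 0.0042). Under equal library totals PSMD6 passed in SCC25 (0.12 and 0.55) and PSMD13 in SCC15 (0.38 and 0.036). PSMD7, the inactive partner of PSMD14, rose by 0.62 in SCC15 and fell by 0.32 in SCC25, with a difference of -0.94 ± 0.095 (SE, limma adjusted p = 5e-06), and with equal library totals its SCC15 value of 0.12 did not pass. PSMD3 rose by 0.40 in SCC15 (-0.094 with equal library totals, not past) and was at 0.0039 in SCC25, not past, where it was called lower at -0.20 with equal library totals. PSMD11 rose by 0.20 in SCC15 with the authors' size factors and fell by 0.29 with equal library totals, whereas in SCC25 it rose under both (0.77 and 0.56). In SCC15 the call of PSMD11 was lost when any 1 library other than squamocin replicate 3 was left out, and those of PSMD14 without any 1 of the DMSO libraries and of PSMD12 without DMSO replicate 2, at limma adjusted p values of up to 0.16, 0.068 and 0.056. In SCC25 the fall of PSMD8 was lost when squamocin replicate 2 or any 1 of the DMSO libraries was left out (limma adjusted p up to 0.17).

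Set against the core, the summed 19S subunits matched by name were lower with squamocin. This sum of 17 subunits leaves out SEM1 and ADRM1. Per kilobase with DMSO, ADRM1 stood at 924 in SCC15 and 1589 in SCC25. The summed counts per kilobase were 0.581, 0.593 and 0.587 of those of the 14 core subunits in SCC15 with DMSO. With squamocin they were 0.556, 0.555 and 0.428. SCC25 gave 0.443, 0.441 and 0.436 with DMSO, against 0.358, 0.358 and 0.355 with squamocin. The log2 ratio changed by -0.21 in SCC15 and by -0.30 in SCC25. In SCC15 squamocin replicate 3 carried most of the change, which was -0.079 without it, whereas the 3 squamocin libraries of SCC25 gave nearly the same value.

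The activators PSME1 to PSME4 and the inhibitor PSMF1 moved each in its own way. PSME1, the PA28 alpha subunit, measured 2307, 2409 and 2459 normalized counts with DMSO and 3452, 3498 and 5827 with squamocin in SCC15 cells. PSME1 rose by 0.79 ± 0.20 on the log2 scale (SE, limma adjusted p = 0.010), with every squamocin library above every DMSO library. The value was 0.29 with equal library totals (not past the threshold). With DMSO, PSME1 counted 6075, 6049 and 6095 normalized reads in SCC25 cells, against 4338, 4514 and 4689 with squamocin. PSME1 fell by 0.43 ± 0.040 on the log2 scale (SE, limma adjusted p = 7e-07), and the groups did not overlap. PSME1 was, per kilobase with DMSO, the member with the highest level in SCC25 (3419.6), and its responses in the lines differed by -1.22 ± 0.21 (SE, limma adjusted p = 0.00042). In SCC15, PSME2, the PA28 beta subunit, stood at 3795, 3689 and 3679 normalized counts with DMSO and at 5941, 6072 and 9128 with squamocin. PSME2 rose by 0.89 ± 0.17 on the log2 scale (SE, limma adjusted p = 0.0028), and the groups did not overlap. This change was 0.39 with equal library totals. For PSME2 the SCC25 libraries gave 5009.6, 4829 and 4913 normalized counts with DMSO and 5426, 5333 and 6077 with squamocin. PSME2 rose by 0.19 ± 0.050 on the log2 scale (SE, limma adjusted p = 0.0042), with every squamocin library above every DMSO library. It was -0.020 with equal library totals (not past the threshold). PSME1 and PSME2, which form 1 complex and lie next to each other on chromosome 14, were thus both called higher in SCC15 and in opposite directions in SCC25 with the authors' size factors. The response of PSME2 was also lower in SCC25 than in SCC15, by -0.70 ± 0.18 (SE, limma adjusted p = 0.0063).

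With DMSO, PSME3, the nuclear PA28 gamma activator, counted 2041, 2087 and 2045 normalized reads in SCC15 cells, against 1243, 1472 and 1512 with squamocin. PSME3 fell by 0.55 ± 0.097 on the log2 scale (SE, limma adjusted p = 0.0022), and the groups did not overlap. In SCC25, PSME3 stood at 2270.3, 2298 and 2299 normalized counts with DMSO and at 1753, 1852 and 1602 with squamocin. PSME3 fell by 0.40 ± 0.054 on the log2 scale (SE, limma adjusted p = 2.1e-05), and the groups did not overlap. PSME3 was the member called lower in both lines, and it stayed so with equal library totals (-1.05 and -0.61). PSME4, the PA200 activator, measured 1203, 1274 and 1227 normalized counts with DMSO and 1736, 1537 and 1331 with squamocin in SCC15 cells. PSME4 rose by 0.31 ± 0.11 on the log2 scale (SE, limma adjusted p = 0.043), with every squamocin library above every DMSO library. The value was -0.19 with equal library totals (not past the threshold). For PSME4 the SCC25 libraries gave 1879, 1891 and 1859 normalized counts with DMSO and 2565, 2556 and 2539 with squamocin. PSME4 rose by 0.44 ± 0.041 on the log2 scale (SE, limma adjusted p = 5.8e-07), with every squamocin library above every DMSO library. It was 0.24 with equal library totals. In SCC15 the call of PSME4 was lost when any 1 library other than squamocin replicate 3 was left out (limma adjusted p up to 0.13). In SCC15, PSMF1, the inhibitor PI31, stood at 1697, 1674 and 1660.4 normalized counts with DMSO and at 1328, 1464 and 1538 with squamocin. Its log2 fold change was -0.22 ± 0.086 (SE, limma adjusted p = 0.058), not past the threshold, although every squamocin library lay below every DMSO library. The value was -0.27 without squamocin replicate 3 (past the threshold) and -0.72 with equal library totals (past the threshold). With DMSO, PSMF1 counted 1918, 1933 and 1804 normalized reads in SCC25 cells, against 1440.0, 1295 and 1361 with squamocin. PSMF1 fell by 0.47 ± 0.054 on the log2 scale (SE, limma adjusted p = 4.6e-06), and the groups did not overlap. Of the activators and the inhibitor, PSME1 and PSME2 differed between the lines, and PSME3, PSME4 and PSMF1 did not pass (limma adjusted p = 0.29, 0.35 and 0.056). The difference of PSME3 passed at 0.44 (adjusted p = 0.0029) by limma with equal library totals, and that of PSMF1 passed without squamocin replicate 1 or 3 of SCC15 or replicate 1 of SCC25, at -0.20 without replicate 3.

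Factors that assemble the 20S core begin with the PSMG1-PSMG2 and PSMG3-PSMG4 pairs, which build the alpha ring. For PSMG1 the SCC15 libraries gave 809, 875 and 807 normalized counts with DMSO and 650.3, 726 and 1217 with squamocin. PSMG1 had a log2 fold change of 0.0026 ± 0.22 (SE, limma adjusted p = 0.99), which did not pass the threshold, and the groups overlapped. The value was -0.27 without squamocin replicate 3 (past the threshold) and -0.49 with equal library totals (past the threshold). PSMG1 measured 830.1, 736 and 728 normalized counts with DMSO and 830.0, 824 and 693 with squamocin in SCC25 cells. PSMG1 had a log2 fold change of 0.030 ± 0.080 (SE, limma adjusted p = 0.74), which did not pass the threshold, and the groups overlapped. The value was -0.18 with equal library totals. With DMSO, PSMG2 counted 816, 927 and 828 normalized reads in SCC15 cells, against 1155, 1154 and 1687 with squamocin. PSMG2 rose by 0.61 ± 0.16 on the log2 scale (SE, limma adjusted p = 0.012), and the groups did not overlap. That value was 0.12 with equal library totals (not past the threshold). In SCC25, PSMG2 stood at 901, 937 and 883 normalized counts with DMSO and at 1293, 1265 and 1257 with squamocin. PSMG2 rose by 0.49 ± 0.051 on the log2 scale (SE, limma adjusted p = 1.9e-06), and the groups did not overlap. This change was 0.28 with equal library totals. With the authors' size factors, PSMG2 rose in both lines and PSMG1 passed in neither. PSMG3 measured 401, 409.6 and 407 normalized counts with DMSO and 532, 496 and 922 with squamocin in SCC15 cells. PSMG3 rose by 0.62 ± 0.22 on the log2 scale (SE, limma adjusted p = 0.042), with every squamocin library above every DMSO library. The value was 0.34 without squamocin replicate 3 and 0.12 with equal library totals (not past the threshold). With DMSO, PSMG3 counted 1100.1, 1117 and 1125 normalized reads in SCC25 cells, against 2025, 2105 and 1918 with squamocin. PSMG3 rose by 0.85 ± 0.050 on the log2 scale (SE, limma adjusted p = 7.2e-09), and the groups did not overlap. In SCC15, PSMG4 stood at 301, 279 and 283 normalized counts with DMSO and at 352, 366 and 608 with squamocin. PSMG4 rose by 0.57 ± 0.21 on the log2 scale (SE, limma adjusted p = 0.043), and the groups did not overlap. This change was 0.32 without squamocin replicate 3 and 0.076 with equal library totals (not past the threshold). For PSMG4 the SCC25 libraries gave 805, 727 and 783 normalized counts with DMSO and 536, 578 and 543 with squamocin. PSMG4 fell by 0.48 ± 0.065 on the log2 scale (SE, limma adjusted p = 2e-05), with every squamocin library below every DMSO library. In SCC25, PSMG3 rose and PSMG4 fell, and the response of PSMG4 differed between the lines by -1.05 ± 0.23 (SE, limma adjusted p = 0.0018). The SCC15 calls of PSMG3 and PSMG4 were lost when any 1 of the DMSO libraries was left out (limma adjusted p up to 0.11 and 0.12).

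The chaperones of the base are PSMD5, PSMD9 and PSMD10, which hold the ATPases until the ring closes. For PSMD10, also known as gankyrin, the SCC15 libraries gave 1692, 1687 and 1569 normalized counts with DMSO and 2303, 2576 and 3556 with squamocin. PSMD10 rose by 0.75 ± 0.16 on the log2 scale (SE, limma adjusted p = 0.0050), with every squamocin library above every DMSO library. It was 0.25 with equal library totals (not past the threshold). In SCC25, PSMD10 stood at 808, 772 and 778 normalized counts with DMSO and at 1768, 1924 and 1623 with squamocin. PSMD10 rose by 1.17 ± 0.063 on the log2 scale (SE, limma adjusted p = 3.6e-09), and the groups did not overlap. In SCC25 the rise of PSMD10 came after those of PSMA2, PSMA1 and PSMC6. With DMSO, PSMD9 counted 183, 207 and 213 normalized reads in SCC15 cells, against 465, 397 and 431 with squamocin. PSMD9 rose by 1.10 ± 0.11 on the log2 scale (SE, limma adjusted p = 0.00021), and the groups did not overlap. That value was 0.60 with equal library totals. PSMD9 measured 157, 151 and 146 normalized counts with DMSO and 170.3, 183 and 185 with squamocin in SCC25 cells. PSMD9 rose by 0.24 ± 0.10 on the log2 scale (SE, limma adjusted p = 0.048), with every squamocin library above every DMSO library. The value was 0.037 with equal library totals (not past the threshold). PSMD9 lies almost wholly within the same-strand gene model AC069503.2 (29489 shared bases), so its count is uncertain in the same way as those of PSMA2 and PSMA6, and its SCC25 call was lost when any 1 library other than squamocin replicate 1 was left out (limma adjusted p up to 0.14). In SCC15, PSMD5 stood at 1735, 1698 and 1711 normalized counts with DMSO and at 1499, 1507 and 1462 with squamocin. PSMD5 fell by 0.20 ± 0.073 on the log2 scale (SE, limma adjusted p = 0.044), and the groups did not overlap. For PSMD5 the SCC25 libraries gave 1493, 1506 and 1530.5 normalized counts with DMSO and 1962, 1955 and 1846 with squamocin. PSMD5 rose by 0.35 ± 0.046 on the log2 scale (SE, limma adjusted p = 1.8e-05), with every squamocin library above every DMSO library. It was 0.14 with equal library totals. PSMD5 and PSMD12 were the members lower in SCC15 and higher in SCC25, and the difference for PSMD5 was 0.55 ± 0.081 (SE, limma adjusted p = 0.00010). In SCC15 the call of PSMD5 was lost when any 1 library other than squamocin replicate 3 was left out (limma adjusted p up to 0.15). PSMC3IP, the recombination factor, was at 0.25 in SCC15 and -0.17 in SCC25 and passed in neither, but it was called lower in SCC25 at -0.37 with equal library totals and also without squamocin replicate 2.

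Compared directly, the response differed between the lines for 24 of the 47 members. It was higher in SCC25 for 4, PSMA1, PSMD5, PSMD11 and PSMD12, and lower in SCC25 for 20, where 26.0% and 26.1% of the 14454 genes were called in these directions. The median difference of the members was -0.36, beside -0.012 over all genes. Lower in SCC25 were PSMA5, PSMA6 and PSMA7, PSMB6, PSMB7, PSMB8 and PSMB10, PSMC1 and PSMC3IP, PSMD1, PSMD2, PSMD3, PSMD4, PSMD7, PSMD8, PSMD9 and PSMD13, PSME1 and PSME2, and PSMG4. The 7 members that were higher in SCC15 and lower in SCC25, PSMA5, PSMD2, PSMD4, PSMD7, PSMD8, PSME1 and PSMG4, were all among them. This was nearly fixed by how the 7 were picked, since both tests use the same libraries. With equal library totals, 13 members were higher and 15 lower in SCC25 (37.7% and 16.6% of genes), and 19 of the 24 kept their call. The calls lost were those of PSMA7, PSMB7, PSMC3IP, PSMD1 and PSMD3, and 9 were gained, all higher in SCC25, for PSMA2, PSMA3, PSMB2, PSMC6, PSMD6, PSMD10, PSMD14, PSME3 and PSMG3. Without squamocin replicate 3 of SCC15, 14 were higher and 25 lower (33.4% and 32.5% of genes), among them all 24.

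**Figure D5:**
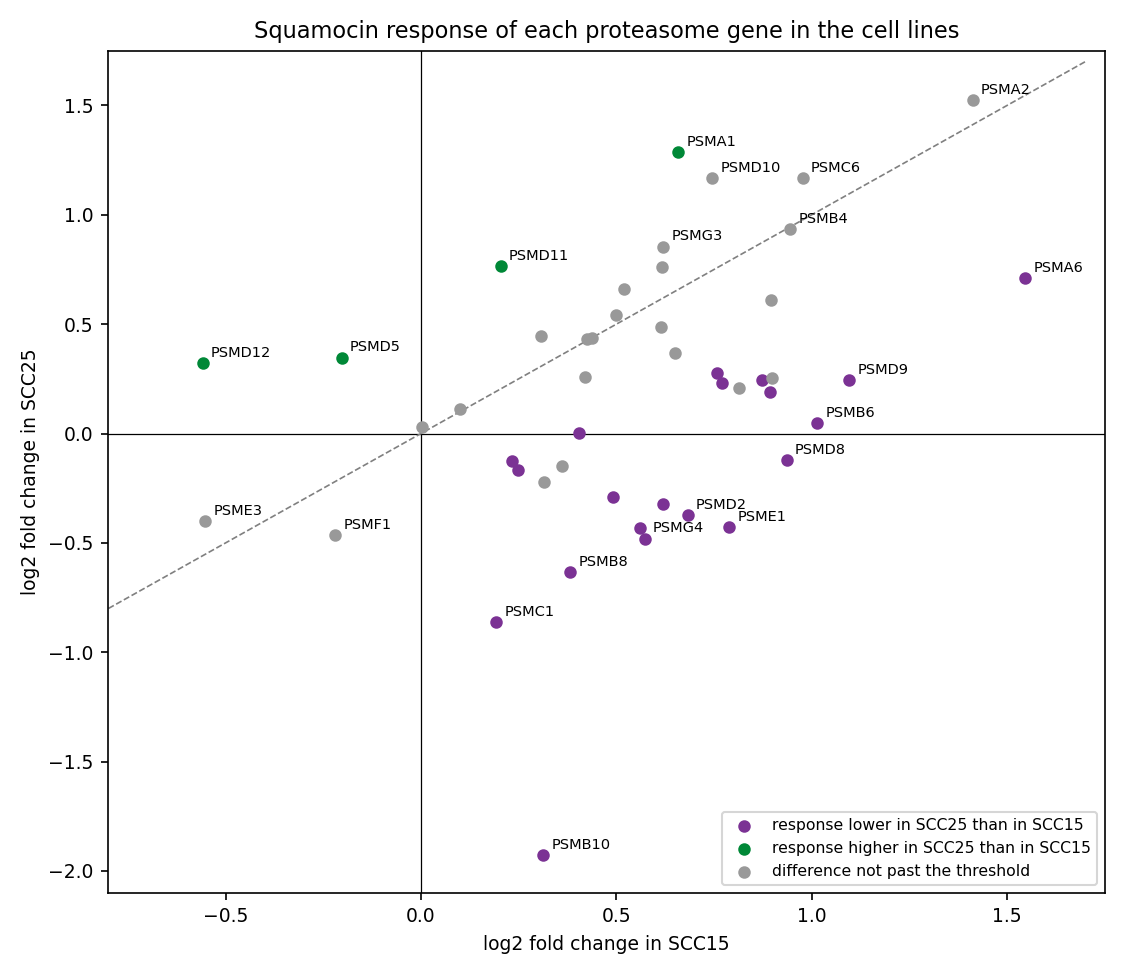
Log2 fold change of squamocin against DMSO in SCC25 (y axis) against that in SCC15 (x axis) for the 47 genes with the authors' size factors, coloured by the test of the difference, with the dashed line marking equal responses. Most coloured points lie below the dashed line, PSMB10 lowest at -1.93 on the y axis, and 4 lie above it.

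A further 33 genes of the pathway came from a list chosen with earlier results of these data known. Of these, 24 were higher and 3 lower in SCC15 (median 0.69), beside 30.9% and 30.0% of all genes. In SCC25, 22 were higher and 6 lower (median 0.45), beside 38.3% and 38.5%. With equal library totals the counts were 15 higher and 8 lower for SCC15 (14.8% and 50.5% of all genes). For SCC25 they were 20 and 9 (30.4% and 47.4%). POMP, the maturation factor of the beta ring, rose by 0.97 and 0.77 in SCC15 and SCC25, and SEM1, a small lid subunit, by 1.07 and 0.93. ADRM1, a ubiquitin receptor of the base, followed PSMD4 and PSMD2, with a rise of 0.93 in SCC15 and a fall of 0.53 in SCC25. AKIRIN2, which brings the proteasome into the nucleus, rose by 1.22 and 0.77, and the proteasome-binding ZFAND2A by 1.31 and 0.93. Lower in both lines was UBE3C, a ubiquitin ligase bound to the proteasome, at -0.80 and -0.75. UBQLN2, a shuttle receptor, fell by 0.53 in SCC15 and rose by 0.45 in SCC25. These genes kept their directions and calls with equal library totals, whereas PAAF1, an assembly factor of the base, was at 0.15 in SCC15, not past, and was called lower at -0.35 with equal totals, and rose by 0.79 in SCC25.

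Among the genes that control proteasome transcription, in SCC15, NFE2L1 stood at 4684, 4525 and 4559 normalized counts with DMSO and at 9219, 8578 and 5974 with squamocin. NFE2L1 rose by 0.76 there (0.27 with equal library totals, not past) and was at -0.065 in SCC25, not past, where it fell by 0.27 with equal library totals. DDI2, the protease that activates NFE2L1, fell by 1.31 in SCC15 and was at 0.18 in SCC25, not past. The small MAF partner genes MAFF and MAFG both rose under either scaling, MAFF by 2.35 in SCC15 cells and 0.78 in SCC25 cells and MAFG by 1.25 and 0.81, while MAFK rose by 1.14 in SCC15 and fell by 0.76 in SCC25. NFE2L2 rose by 0.65 in SCC15 (0.15 with equal library totals, not past) and by 1.37 in SCC25.

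UBB, a polyubiquitin gene, rose by 1.12 in SCC15 and fell by 0.15 in SCC25 (0.63 and -0.36 with equal library totals, both past the threshold). Of the genes tied to the immunoproteasome by interferon, IRF1, a transcription factor that induces PSMB9, rose by 2.32 in SCC15 and 2.86 in SCC25, in the latter beside the falls of PSMB8, PSMB9 and PSMB10. TAP1, the peptide transporter gene that overlaps PSMB9 by 8770 bases on the opposite strand, rose by 0.66 in SCC15 (0.16 with equal library totals, not past) and was at 0.12 in SCC25, not past.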

How the data were processed

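RNA-seq libraries of SCC15 and SCC25 cells, 12 in all, were grouped by cell line and treatment from their labels. The authors aligned reads to GRCh38 with HISAT2 2.0.5 and counted them per gene with featureCounts 1.5.0-p3. The deposited signal values are normalized counts: the authors scaled the reads of each library by its size factor, estimated for each cell line on its own. In every library 100% of values came out as whole multiples of what 1 read is worth, within 0.1 of a read. The SCC25 headers name them FPKM, but the steps were the same for genes of every length, as they would not be in FPKM. Strand setting and annotation release are not given in the sources used here. The authors' columns of fold changes and p-values were not used.

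With limma 3.58.1 (R 4.3.3, trend allowed), log2 values were tested after adding 1 to each normalized count. Genes entered the test where their mean in the 6 libraries of a line reached 10, and p-values were adjusted by Benjamini-Hochberg over all genes tested. The difference of the lines was a contrast in 1 fit over 14454 genes. Ratios between subunits used exact permutation tests. Levels were divided by exonic length, that of all exons of a gene joined (GENCODE 44), which can exceed the length of its transcripts. Promoters came from RefSeq. Every member was named. Values per library were given for the catalytic and immunoproteasome subunits, activators, inhibitor, assembly factors, PSMD4 and PSMD14, the 3 members with the largest rise and fall in each line and the 3 with the largest difference between the lines, and those of PSMB4, PSMD2 and NFE2L1 were added after their values were seen. Members and lists were chosen with earlier results of these data known. The fits were tested on simulated data. Alternatives were other pseudocounts, filters and scalings, count models of the recovered reads (edgeR 4.0.16, DESeq2 1.42.0), a replicate block, and each library left out. Equal totals without squamocin replicate 3 of SCC15 was chosen after seeing the data. Some genes of the wider pathway list are not reported here.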

Additional observations from a re-analysis of the deposited data

Results flagged for a closer look

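The squamocin response of 24 of the 47 members differed between SCC15 and SCC25 by the limma test of the difference itself (adjusted p under 0.05). Over the 14454 genes tested in both lines, 26.0% were called higher and 26.1% lower in SCC25. The count of 24 is thus near the share of all genes called in either direction. The values are log2 fold changes, SCC25 minus SCC15. Those higher in SCC25 were PSMA1 (0.63), PSMD11 (0.56), PSMD12 (0.88) and PSMD5 (0.55). The members called higher in SCC15 and lower in SCC25 were PSMA5 (-0.78), PSMD2 (-1.06), PSMD4 (-0.99), PSMD7 (-0.94), PSMD8 (-1.06), PSME1 (-1.22) and PSMG4 (-1.05). Of the immunoproteasome subunits, PSMB8 (-1.02) and PSMB10 (-2.24) differed. The remaining differences were PSMA6 (-0.84), PSMA7 (-0.54), PSMB6 (-0.96), PSMB7 (-0.48), PSMC1 (-1.06), PSMC3IP (-0.42), PSMD1 (-0.36), PSMD13 (-0.63), PSMD3 (-0.40), PSMD9 (-0.85) and PSME2 (-0.70). With equal library totals, PSMA7, PSMB7, PSMC3IP, PSMD1 and PSMD3 no longer passed, and 9 others passed as higher in SCC25: PSMA2, PSMA3, PSMB2, PSMC6, PSMD6, PSMD10, PSMD14, PSME3 and PSMG3. Of the differences listed, those of PSMA7 and PSMB7 were each lost in 9 of the 12 fits that leave out 1 library and were -0.32 and -0.27 without squamocin replicate 3 of SCC15. That of PSMC3IP was lost in 5, that of PSMA1 in 3 (without DMSO replicate 2 of SCC15, or squamocin replicate 1 or DMSO replicate 3 of SCC25) and that of PSMD1 in 1 (without DMSO replicate 1 of SCC15).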

How the results depend on the processing

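With equal library totals, 10 members were higher and 9 lower in SCC15 (14.8% and 50.5% of all genes), and PSMD11 turned to -0.29 there. With equal totals and without squamocin replicate 3 of SCC15, a setting chosen after seeing the data, 19 were higher and 17 lower, the median of the members was -0.069, and PSMA3, PSMA5 and PSMD11 turned to -0.15, -0.15 and -0.23. Asking for an absolute log2 fold change above 1 left 4 higher and 0 lower in SCC15, 4 higher and 1 lower in SCC25, and 7 differences between the lines. Leaving out each library in turn gave from 19 (without DMSO replicate 3) to 36 (without squamocin replicate 3) higher and from 1 (without DMSO replicate 2) to 5 (without squamocin replicate 3) lower in SCC15, from 26 to 27 higher and 12 to 15 lower in SCC25, and from 20 to 39 differences. With 2 libraries left in a group, the spread was pooled over both groups of the line. Same-numbered libraries did not deviate together (correlations of their deviations from -0.051 to 0.0078), so the numbers do not pair them. A fit with the replicate block gave 30 higher and 2 lower in SCC15, 26 and 15 in SCC25, and 26 differences. On the recovered reads edgeR called 30 higher and 4 lower in SCC15 and DESeq2 33 and 4, and both called 26 and 15 in SCC25. Over all genes edgeR called 4712 higher and 5168 lower in SCC15 and 6298 and 6506 in SCC25. DESeq2 called 5067 and 4897 in SCC15 and 6093 and 6103 in SCC25. Both tested 15902 genes in SCC15 and 16539 in SCC25. No share over all genes is given here for the fold change limit, the replicate block or equal totals without squamocin replicate 3. The same holds for leaving out any library other than that one. Those member counts cannot be set against all genes. The cause of these changes was not tested. All 47 members passed the filter on low values, and the number of libraries limits the precision.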
